A study of Mus musculus with 10 samples.

Results

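CC chemokine ligands are small secreted proteins that draw leukocytes towards their source, and 10 of their genes were followed here in bone marrow derived macrophages (BMDMs). They are Ccl2, Ccl7, Ccl12, Ccl8, Ccl3, Ccl4, Ccl5, Ccl6, Ccl9 and Ccl22, 10 genes of the 19937 that the array platform gave a symbol of their own. Each was read from the feature (a set of probes for one transcript) that the platform table mapped to that symbol alone, and each had 1 such feature. Gene expression had been measured on 10 Affymetrix Mouse Gene 1.0 ST arrays, 5 from Rac2-/- and 5 from WT BMDMs, to ask which genes depend on the small GTPase Rac2. The Rac2-/- cells lacked Rac2 in the whole animal, while the WT cells carried it, and the methods describe these controls as littermates. Both groups were male, of strain C57BL by the labels (C57BL/6J in the methods), and their cells grew in 20% serum with 50 ng/ml M-CSF, the growth factor that turns marrow cells into macrophages, at 16% oxygen with no other stimulus. The labels give 7 days of M-CSF and a culture of 8 days, with over 80% of cells positive for Mac1. Ages are not given. The labels do not tell whether every array had its own mouse, and the tests below reflect array-to-array spread, which may be technical.

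Chemokines bind receptors that couple to G proteins, and one ligand often binds several receptors. Ligands of Ccr2 bring monocytes out of the marrow and into tissue, ligands of Ccr1 act on monocytes, macrophages and T cells, and ligands of Ccr4 draw regulatory and Th2 cells. Macrophages are a main source of these ligands, and many of the genes are switched on by NF-κB and by interferons.

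The genes lie in clusters. On chromosome 11, Ccl2, Ccl7, Ccl12 and Ccl8 sit in 1 group with Ccl11 and Ccl1, and Ccl5, Ccl9, Ccl6, Ccl3 and Ccl4 form a second group further along, whereas Ccl22 lies near Ccl17 on chromosome 8. RefSeq promoters, running from 250 bases before to 50 bases after the start of the transcript, were at hand for 6 of the 10 genes (Ccl12, Ccl8, Ccl3, Ccl6, Ccl9 and Ccl22, not Ccl2, Ccl7, Ccl4 or Ccl5). The 4 printed here, from build GRCm38.p6, belong to 2 neighbours with large differences between the genotypes, Ccl12 (chr11:82101595-82101894, plus strand) and Ccl8 (chr11:82114935-82115234, plus strand), and to 2 neighbours with none that passed any fit, Ccl6 (chr11:83593038-83593337, minus strand) and Ccl9 (chr11:83578587-83578886, minus strand). Ccl12 and Ccl8 passed in some of the fits below, but not in the limma test with genotype as its only term (adjusted p = 0.354 and 0.139). Whether promoter letters bear on the genotype differences was not tested. Capitals mark TATAAA, the letters of a TATA box, on the strand of the gene.
Ccl12: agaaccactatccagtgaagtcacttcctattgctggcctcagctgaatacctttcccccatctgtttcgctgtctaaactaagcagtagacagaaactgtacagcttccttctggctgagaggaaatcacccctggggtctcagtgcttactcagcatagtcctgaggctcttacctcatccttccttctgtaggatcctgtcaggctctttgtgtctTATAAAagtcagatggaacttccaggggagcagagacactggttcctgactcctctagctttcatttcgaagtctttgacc
Ccl8: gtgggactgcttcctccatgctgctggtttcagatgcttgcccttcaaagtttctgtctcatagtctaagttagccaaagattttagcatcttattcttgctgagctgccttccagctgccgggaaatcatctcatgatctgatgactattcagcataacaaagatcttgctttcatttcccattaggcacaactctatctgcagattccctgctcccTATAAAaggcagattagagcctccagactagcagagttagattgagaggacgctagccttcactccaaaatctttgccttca
Ccl6: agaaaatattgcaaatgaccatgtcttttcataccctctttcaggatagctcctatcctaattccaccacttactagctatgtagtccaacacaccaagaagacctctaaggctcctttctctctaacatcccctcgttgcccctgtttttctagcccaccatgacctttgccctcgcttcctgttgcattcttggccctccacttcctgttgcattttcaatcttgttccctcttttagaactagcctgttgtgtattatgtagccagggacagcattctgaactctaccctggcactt
Ccl9: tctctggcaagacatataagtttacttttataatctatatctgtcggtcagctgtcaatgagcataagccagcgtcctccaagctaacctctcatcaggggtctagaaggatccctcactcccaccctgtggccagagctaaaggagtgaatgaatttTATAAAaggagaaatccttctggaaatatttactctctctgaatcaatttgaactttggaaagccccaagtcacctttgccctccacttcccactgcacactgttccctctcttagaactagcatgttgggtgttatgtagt
TATAAA began at position -31 in Ccl12 and -32 in Ccl8, counted from the first base of the transcript, and at -92 in Ccl9. It was absent on the gene's strand from the windows of Ccl6, Ccl3 and Ccl22. Of 32851 promoters in the table, 8.32% held TATAAA on the gene's strand and 13.6% on either strand, and 1.99% held it on the gene's strand with its first base between -40 and -20, a stretch chosen after the positions were seen. On the other strand, Ccl9 also held it at -224 and at -94, and the match at -94 overlaps the one in capitals. Both strands were also searched for TGANTCA, the letters of an AP-1 site (7.81% of all promoters), and for the κB consensus (5.8%). Among the 6 windows, Ccl9 alone held the AP-1 letters, at -53 on both strands, as these letters read alike on either, and the κB consensus, at -35 on the other strand.

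Before the genes are taken in turn, some facts of the arrays bear on all of them. Rac2 read 6.80 to 7.54 on the log2 scale in the Rac2-/- arrays, against 11.81 to 12.42 in the WT arrays, which makes it 32.1-fold lower in Rac2-/- (limma adjusted p = 7.73e-07). Arrays 1 and 2 of both genotypes stood apart from arrays 3 to 5, with correlations between arrays of 0.934 to 0.955 across these 2 sets and 0.974 to 0.996 within them. The labels name no batch, and each set holds both genotypes, so differences are also given within the sets and from a fit that has the replicate number as a block. Of all features tested, 46.9% differed between the sets at an adjusted p under 0.05. The macrophage list was bright in every array, with summed linear values of 42257 to 47868 in Rac2-/- and 41541 to 47773 in WT for 10 of its 11 markers read. Those 10 include Adgre1 (F4/80), at 12.58 to 12.87 in Rac2-/- and 12.48 to 12.67 in WT, and Csf1r, the M-CSF receptor. Of the 10, 3 had a lower mean in Rac2-/- and 7 a higher one, and none passed the limma test without the block. Fcgr1 (-0.74) and Cd68 (-0.22) were lower in every Rac2-/- array than in any WT array, and Itgam (0.33) was higher. With the block, Fcgr1 (limma adjusted p = 0.0449) and Itgam (adjusted p = 0.038) passed.

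The 10 CC ligand genes followed here were mostly lower in Rac2-/- BMDMs. They were chosen with earlier results of these data known, so their counts are descriptive and do not test CC ligands as a family. The 9 other CC ligand genes tested had a median difference of -0.04. Group means were lower for 9 of the 10 genes, with a median difference of -1.09 on the log2 scale (Rac2-/- minus WT), while the median over all features tested was -0.00034 and 50.1% of features had a lower mean. Ccl2, Ccl7 and Ccl22 passed the limma test at an adjusted p under 0.05, all lower in Rac2-/-, so 3 of 10 were called against 1.11% of all features called lower (1.9% in either direction). With the replicate block, Ccl12, Ccl8 and Ccl4 passed as well, which made 6 of 10 against 3.03% of all features. For 6 of 10 genes (Ccl2, Ccl7, Ccl8, Ccl3, Ccl5 and Ccl22) every Rac2-/- array lay below every WT array, a pattern that 2.34% of all features showed. Beyond a difference of -1 lay 5 of the genes, as did 0.747% of all features.

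**Figure D1:**
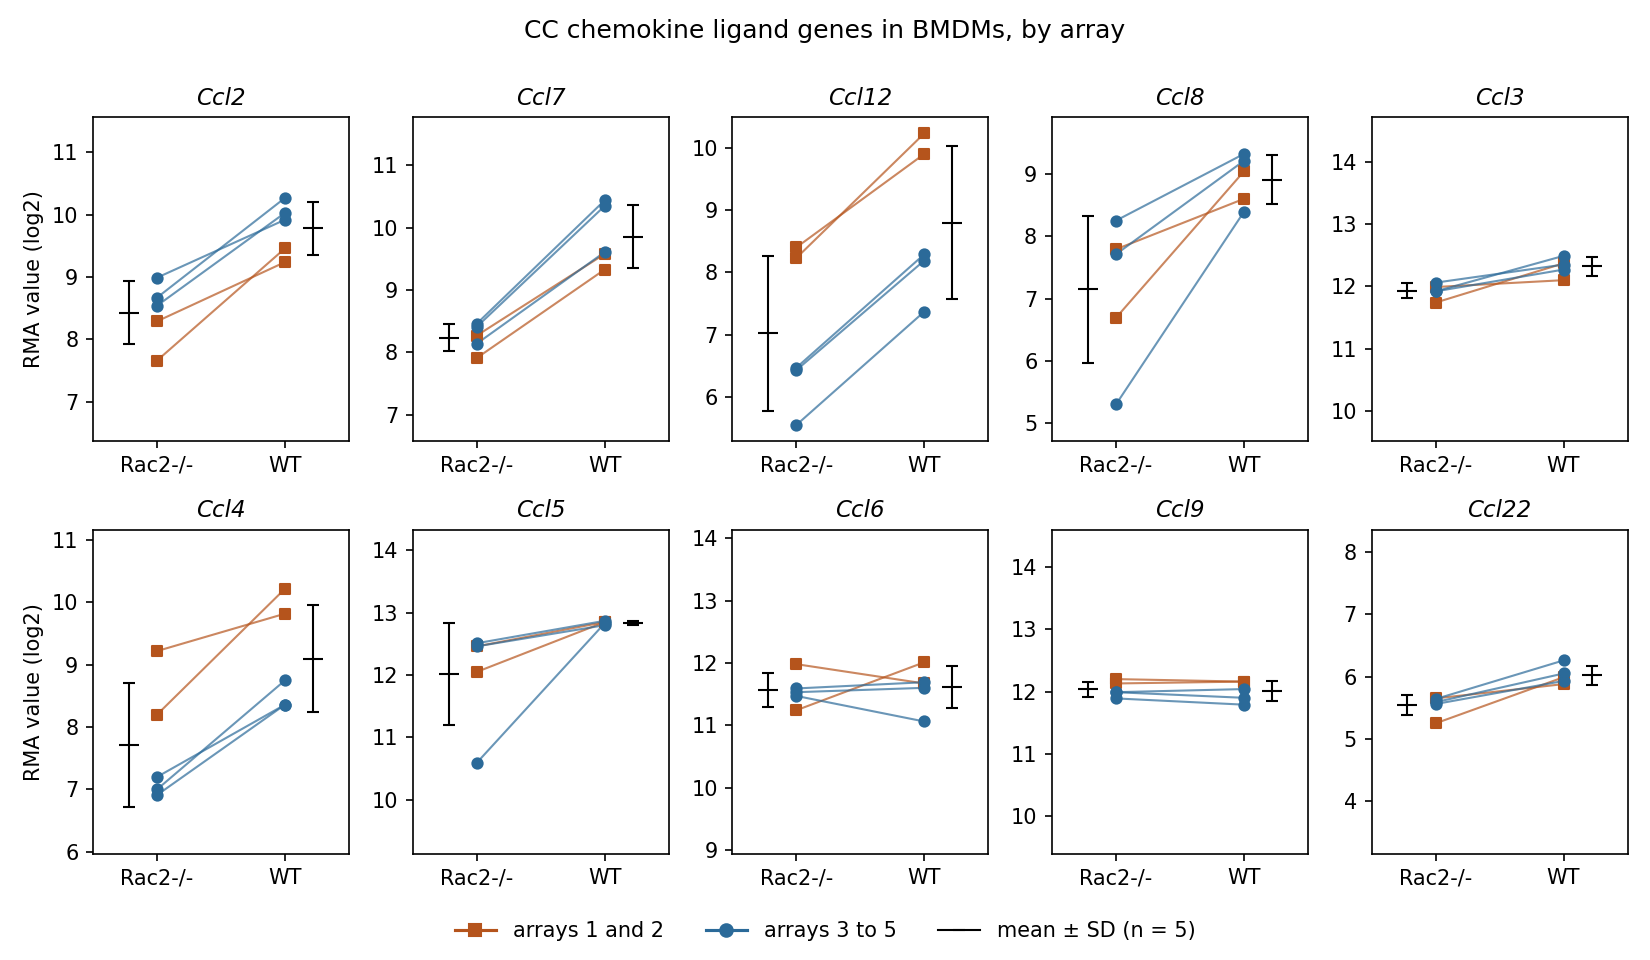
RMA values (log2, vertical axis, the same span in every panel but with different ends) of the 10 CC ligand genes in 5 Rac2-/- arrays (left) and 5 WT arrays (right), with lines joining arrays of the same number, squares for arrays 1 and 2, circles for arrays 3 to 5, and black bars for mean ± SD (n = 5). Lines climb from Rac2-/- to WT in all 5 pairs for every gene but Ccl6 and Ccl9, and the 2 array sets stand apart for Ccl12 and Ccl4.

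Some markers of other cell types moved with the genotype, and their part in the chemokine values was not tested. The 5 of 8 mast cell and basophil markers bright enough to be tested were all lower on average in Rac2-/- BMDMs, with summed linear values of 198 to 238, against 250 to 519 in WT. Cpa3, which enters these sums, was kept through its WT arrays (4.11 to 6.05). All its Rac2-/- arrays (3.87 to 4.42) lay under the cut of 4.726, so its lower mean was built into the selection. Of the untested markers, Mcpt4 averaged 4.40 in Rac2-/- and 4.36 in WT, while Fcer1a and Ms4a2 were lower in Rac2-/-. Fcer1a and Ms4a2, which encode subunits of the IgE receptor of both cell types, and Mcpt4, a mast cell protease, were below the filter on low values, and none of the 5 passed the limma test (4 had an unadjusted p under 0.05). The 8 dendritic cell markers summed to 446 to 524 in Rac2-/- and 569 to 705 in WT, with 5 of the 8 lower on average and 3 higher. Of these, 2 passed, Ccr7 and Dpp4, both lower in Rac2-/- (1.11% of all features were called lower). With the replicate block (3.03% called lower), Siglech, lower (adjusted p = 0.0117), and Xcr1, higher (adjusted p = 0.00877), passed as well. Summed values of the neutrophil, eosinophil, fibroblast, T and NK cell, B cell and endothelial lists overlapped between the genotypes, and none of their markers passed without the block. With it, the fibroblast markers Dcn (-1.21, adjusted p = 0.0173) and Postn (-0.69, adjusted p = 0.0039) were lower in Rac2-/-, while Pdgfrb (0.62, adjusted p = 0.0302), of the same list, and the B cell marker Cd79b (0.78, adjusted p = 0.0144) were higher. In RNA from a whole culture, fewer cells of a kind and less RNA per cell cannot be told apart.

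Of the 3 genes for Ccr2 ligands, Ccl2 and Ccl7 passed the test, both lower in Rac2-/- BMDMs. Ccl2, also known as monocyte chemoattractant protein 1, read 8.29, 7.66, 8.67, 8.54 and 8.99 in Rac2-/- arrays 1 to 5, against 9.24, 9.46, 10.27, 10.03 and 9.92 in WT arrays 1 to 5. The highest Rac2-/- array, number 5, lay below the lowest WT array, number 1. The fitted difference corresponds to a level 2.55-fold lower in Rac2-/- (95% interval 1.7 to 3.84, limma adjusted p = 0.0298), and the gap between arrays of the same number ran from -1.79 to -0.93. The call held in 3 of the 10 fits that left out an array and was lost without Rac2-/- array 1, 3 or 4 or without WT array 2, 3, 4 or 5 (adjusted p 0.0554 to 0.0869).

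Ccl7, a second Ccr2 ligand, read 8.27, 7.91, 8.46, 8.41 and 8.14 in Rac2-/- arrays 1 to 5, against 9.58, 9.33, 10.44, 10.35 and 9.61 in the WT arrays. All Rac2-/- arrays lay in a band narrower than that of the WT arrays and well below it. Ccl7 averaged 8.24 ± 0.22 in Rac2-/- and 9.86 ± 0.50 in WT (SD, n = 5 each), a difference of -1.62 (SE 0.22, limma adjusted p = 0.00577). In linear terms it was 3.08-fold lower in Rac2-/- (95% interval 2.18 to 4.35). It passed in all 10 fits that left out an array, as no other of the 10 genes did (adjusted p 0.00638 to 0.0188).

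Ccl12, a Ccr2 ligand of the mouse, had values that split by array set in both genotypes. It read 8.23, 8.40, 6.47, 6.43 and 5.55 in Rac2-/- arrays 1 to 5, against 10.23, 9.90, 8.29, 8.19 and 7.37 in WT. Pooled, the groups overlapped, because Rac2-/- arrays 1 and 2 lay above WT array 5 and close to WT arrays 3 and 4. Within each set no overlap remained, and the mean differences were -1.74 in arrays 1 and 2 and -1.80 in arrays 3 to 5. Arrays of the same number differed by -1.99, -1.50, -1.82, -1.76 and -1.83, a narrower range than those of Ccl2 and Ccl7. The pooled difference of -1.78 had an SE of 0.69 and did not pass (limma adjusted p = 0.354; exact permutation test, two-sided, p = 0.0714). In the blocked fit the SE was 0.08 and the difference passed (limma adjusted p = 0.000294).

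Ccl8, which in the mouse acts through Ccr8, lies next to Ccl12. It read 6.69, 7.79, 8.25, 7.71 and 5.30 in Rac2-/- arrays 1 to 5, against 9.04, 8.60, 9.32, 9.21 and 8.39 in WT. Rac2-/- was below WT throughout, but the Rac2-/- arrays were spread over nearly 3 log2 units, array 5 being lowest, and WT over less than 1. The difference of -1.76 (SE 0.50) did not pass (limma adjusted p = 0.139) and passed with the replicate block (adjusted p = 0.0295). It did not pass with a term for the array sets (adjusted p = 0.0579) or within arrays 3 to 5 (adjusted p = 0.217). When Rac2-/- array 5 was left out, it was -1.30 (adjusted p = 0.0931).

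**Figure D2:**
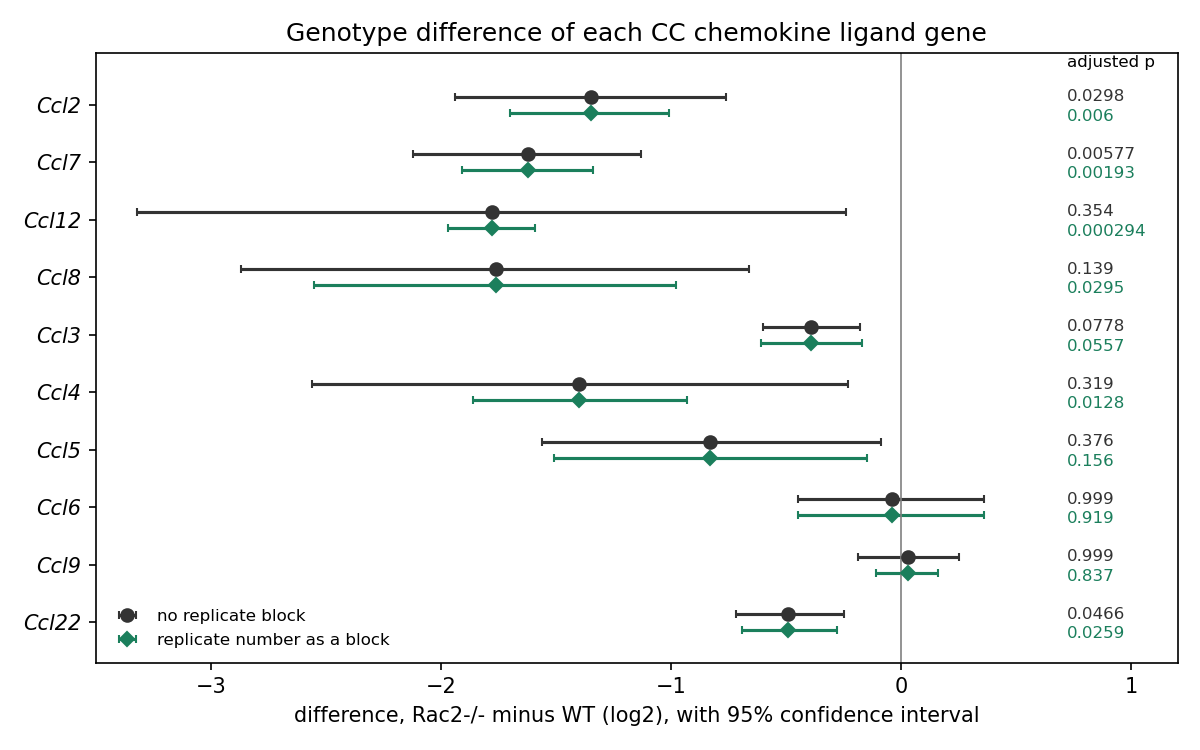
Difference of each gene, Rac2-/- minus WT (log2, horizontal axis), with its 95% confidence interval, from limma without a block (black circles) and with the replicate block (green diamonds), n = 5 arrays per genotype, and the adjusted p over all features at the right. The block narrows the interval most for Ccl12, whose adjusted p is 0.354 without it and 0.000294 with it, and Ccl3, Ccl5, Ccl6 and Ccl9 stay above 0.05 with it.

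Ccl3 and Ccl4, also called MIP-1α and MIP-1β, are neighbouring genes whose products draw monocytes and T cells, and Ccl3 acts on Ccr1. Ccl3 read 11.99, 11.74, 12.06, 11.92 and 11.92 in Rac2-/- arrays 1 to 5, against 12.10, 12.37, 12.35, 12.27 and 12.49 in WT. The groups were close but did not overlap, the nearest being Rac2-/- array 3 and WT array 1. The difference of -0.39 (SE 0.09) stayed above the threshold without and with the block (limma adjusted p = 0.0778 and 0.0557) and passed with a term for the 2 array sets (adjusted p = 0.0145).

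Ccl4 read 9.22, 8.20, 7.20, 6.91 and 7.00 in Rac2-/- arrays 1 to 5, against 9.82, 10.22, 8.36, 8.36 and 8.75 in WT. As with Ccl12, arrays 1 and 2 were the brighter set in both genotypes and the pooled groups overlapped, while within each set all Rac2-/- arrays lay below the WT arrays. The set means of the difference were -1.31 in arrays 1 and 2 and -1.45 in arrays 3 to 5. Pooled, -1.40 (SE 0.52) did not pass (limma adjusted p = 0.319; exact permutation test, two-sided, p = 0.0556), and with the block it did (adjusted p = 0.0128). A predicted model of Ccl4 in the RefSeq table overlaps Ccl3, and probe sequences were not used here.

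Ccl5, or RANTES, a ligand of Ccr1 and Ccr3, read 12.05, 12.46, 12.51, 12.46 and 10.59 in Rac2-/- arrays 1 to 5, against 12.85, 12.85, 12.87, 12.80 and 12.83 in WT. The WT arrays were nearly alike (SD 0.03), and every Rac2-/- array was lower, array 5 by far the most. The difference of -0.83 (SE 0.33) passed neither without nor with the block (limma adjusted p = 0.376 and 0.156). Without Rac2-/- array 5 it was -0.47 (adjusted p = 0.0695).

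Ccl6 and Ccl9 are ligands of Ccr1, and neither differed past its spread. Ccl6 read 11.24, 11.98, 11.59, 11.53 and 11.47 in Rac2-/- arrays 1 to 5, against 12.01, 11.67, 11.69, 11.60 and 11.06 in WT, with the groups fully overlapping. Its difference was -0.04, with a 95% interval of -0.45 to 0.36 (limma adjusted p = 0.999). Ccl9 read 12.13, 12.20, 11.99, 11.89 and 11.99 in Rac2-/- arrays 1 to 5, against 12.16, 12.16, 11.90, 11.79 and 12.04 in WT. Its difference was 0.03, with a 95% interval of -0.19 to 0.25 (adjusted p = 0.999), which leaves out falls of the size seen for Ccl2, Ccl7 or Ccl22.

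Ccl22, a ligand of Ccr4, read 5.25, 5.65, 5.64, 5.56 and 5.59 in Rac2-/- arrays 1 to 5, against 5.99, 5.88, 6.26, 5.93 and 6.05 in WT. These values lie near the low end of the features kept, whose fourth-highest value was at least 4.726. No Rac2-/- array reached the lowest WT array, and Rac2-/- array 1 was the lowest of all. The level was 1.4-fold lower in Rac2-/- (95% interval 1.19 to 1.64, limma adjusted p = 0.0466). The call was lost in all 10 fits that left out an array (adjusted p 0.0546 to 0.121) and held with the block (adjusted p = 0.0259).

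Exact two-sided permutation tests of the group means gave p = 0.00794, the smallest that 5 arrays against 5 allow, for each of the 6 genes whose groups did not overlap. They gave p = 0.786 for Ccl6 and p = 0.77 for Ccl9 (exact, n = 5 per genotype). Whether the genotype difference itself changed between the array sets was tested with an interaction term, and 0 of 10 genes passed in limma (adjusted p 0.939 to 0.997, unadjusted p 0.24 to 0.965, with 0 of 10 under 0.05), and 0% of all features did.

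The differences between the array sets did not all run one way. With genotype in the fit, 4 of the 10 differed between arrays 3 to 5 and arrays 1 and 2 (limma adjusted p under 0.05), against 46.9% of all features. Arrays 3 to 5 minus arrays 1 and 2 gave -2.14 for Ccl12 (adjusted p = 2.79e-05), -1.60 for Ccl4 (adjusted p = 5.92e-05) and -0.23 for Ccl9 (adjusted p = 0.012), whereas Ccl2 was higher in arrays 3 to 5, by 0.74 (adjusted p = 0.00129). Array 5 of both genotypes read below arrays 3 and 4 for Ccl7, Ccl12 and Ccl8.

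Set against the mean of the WT arrays of the same array set, Rac2-/- array 5 had the lowest median over the 10 genes, at -1.29, with -0.80, -0.76, -0.58 and -0.90 in arrays 1 to 4. It was the lowest Rac2-/- array on this scale for 4 genes, Ccl7, Ccl12, Ccl8 and Ccl5, but not for Ccl2, for which array 2 was lowest at -1.68. Without Rac2-/- array 5, Ccl2 and Ccl7 still passed (adjusted p = 0.0243 and 0.014) and Ccl22 did not (adjusted p = 0.0806).

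**Figure D3:**
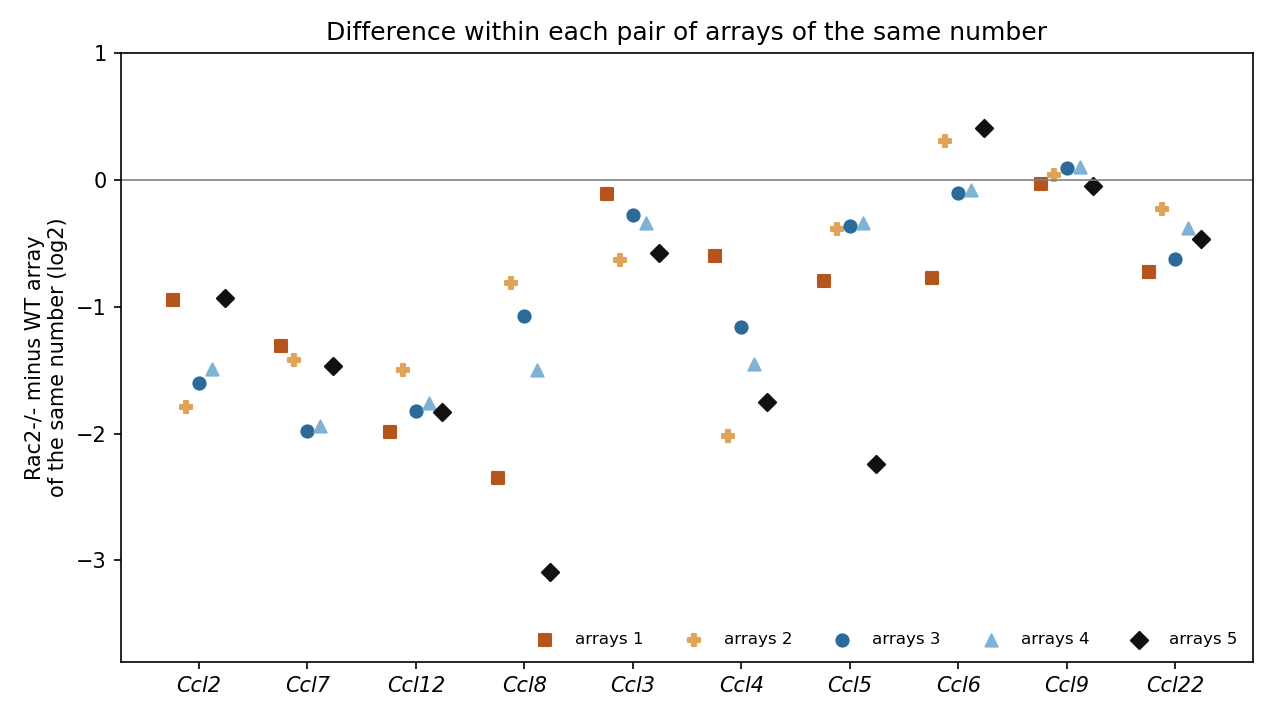
Difference between the Rac2-/- and the WT array of the same number (log2, vertical axis) for each gene, with 1 symbol per array number. All 5 points lie below 0 for 8 of the genes, within -1.99 to -1.50 for Ccl12, and the points of arrays 5 lie farthest down for Ccl8 (-3.09) and Ccl5 (-2.24).

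Among 16883 genes, those whose profile over the 10 arrays was nearest to each called ligand were found by the root mean square difference after each gene was centred on its own mean. Nearest to Ccl2 (SD over the arrays 0.84) were Klra17 at 0.20, Klra2 at 0.21 and Rgs1, a regulator of G protein signalling, at 0.23. The Klra genes form a family of close copies whose probes may not tell them apart. Nearest to Ccl7 (SD 0.93) were A630012P03Rik at 0.26, Padi4, an enzyme that turns arginine in proteins into citrulline, at 0.28 and Pdgfc, a growth factor, at 0.28. Ccl22 (SD 0.30) was matched most closely by D830046C22Rik and Msl3l2, both at 0.08, and Dhx34 at 0.09, so its small range was matched within less than 0.1 log2 units.

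Of the 11 other CC ligand genes on the list, 9 had a feature of their own and all 9 were tested. None passed without the block or with it (limma, with 1 of 9, Ccl24 without the block, at an unadjusted p under 0.05), and their median difference was -0.04. Ccl11, which lies among the Ccr2 ligand genes, had a difference of -0.14 (adjusted p = 0.795), and Ccl17, which lies near Ccl22, one of -0.15 (adjusted p = 0.799). Ccl24, an eotaxin that acts on Ccr3, read 6.50, 6.45, 6.37, 6.44 and 8.27 in Rac2-/- arrays 1 to 5, against 5.80, 6.04, 6.03, 5.83 and 5.78 in WT. It lay above WT in every Rac2-/- array, farthest in array 5, in which Ccl5 and Ccl8 were lowest. Its difference was 0.91 (SE 0.33, adjusted p = 0.303) and, without that array, 0.54 (adjusted p = 0.0158).

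Among 14 CC receptor genes, each with a feature of its own, 13 were bright enough to be tested, with a median difference of -0.13. Of these, 3 passed, all lower in Rac2-/- (1.11% of all features were called lower). With the block 4 passed, all lower (3.03% of all features were called lower), which added Ccr9 (adjusted p = 0.159 without and 0.0281 with it). Ccr7, which guides cells to lymph nodes along Ccl19 and Ccl21, read 6.27, 6.67, 7.03, 6.85 and 6.49 in Rac2-/- arrays 1 to 5, against 7.45, 7.30, 7.70, 7.77 and 7.66 in WT. The groups did not overlap, with a difference of -0.91 (SE 0.15, adjusted p = 0.0141), and the call was lost only without WT array 3 (adjusted p = 0.0506).

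Ccrl2, an atypical receptor that binds chemerin, read 9.14, 8.72, 8.78, 8.71 and 8.75 in Rac2-/- arrays 1 to 5, against 9.22, 9.43, 9.41, 9.41 and 9.58 in WT. Ccr1l1, a gene related to Ccr1, read 5.08, 4.75, 5.19, 4.90 and 4.87 in Rac2-/-, against 5.89, 6.23, 5.43, 5.49 and 5.86 in WT. Both were lower in all Rac2-/- arrays, with differences of -0.59 (adjusted p = 0.0197) and -0.82 (adjusted p = 0.0286). Ccrl2 lost its call in 7 of the 10 fits that left out an array (those without Rac2-/- array 2, 3 or 4 or WT array 2, 3, 4 or 5, adjusted p 0.0535 to 0.0632) and Ccr1l1 in 6 (those without Rac2-/- array 2, 4 or 5 or WT array 1, 2 or 5, adjusted p 0.0504 to 0.0831).

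Of the receptors named here for the 10 ligands, Ccr1, Ccr2, Ccr3 and Ccr4 were tested and none passed in limma (Ccr3 alone had an unadjusted p under 0.05). Ccr2 read 10.38, 10.62, 10.07, 10.09 and 10.94 in Rac2-/- arrays 1 to 5, against 11.06, 10.57, 10.62, 10.60 and 9.94 in WT, with a difference of -0.13 and a 95% interval of -0.63 to 0.36 (limma adjusted p = 0.999). Array 5 was the highest of the Rac2-/- arrays and the lowest of the WT arrays. Ccr1 had a difference of -0.36 (95% interval -1.02 to 0.30, adjusted p = 0.895), with 7.59 in Rac2-/- array 5 against 5.74 to 6.45 in the other Rac2-/- arrays. Without that array it was -0.65 (adjusted p = 0.11), and over all fits with 1 array left out it ran from -0.65 to -0.19. Ccr3, a receptor of Ccl5, was lower in all 5 pairs, by -0.75 on average (adjusted p = 0.2). Ccr4, the receptor of Ccl22, had a difference of -0.05 (adjusted p = 0.999), and Ccr8 was below the filter and not tested.

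**Figure D4:**
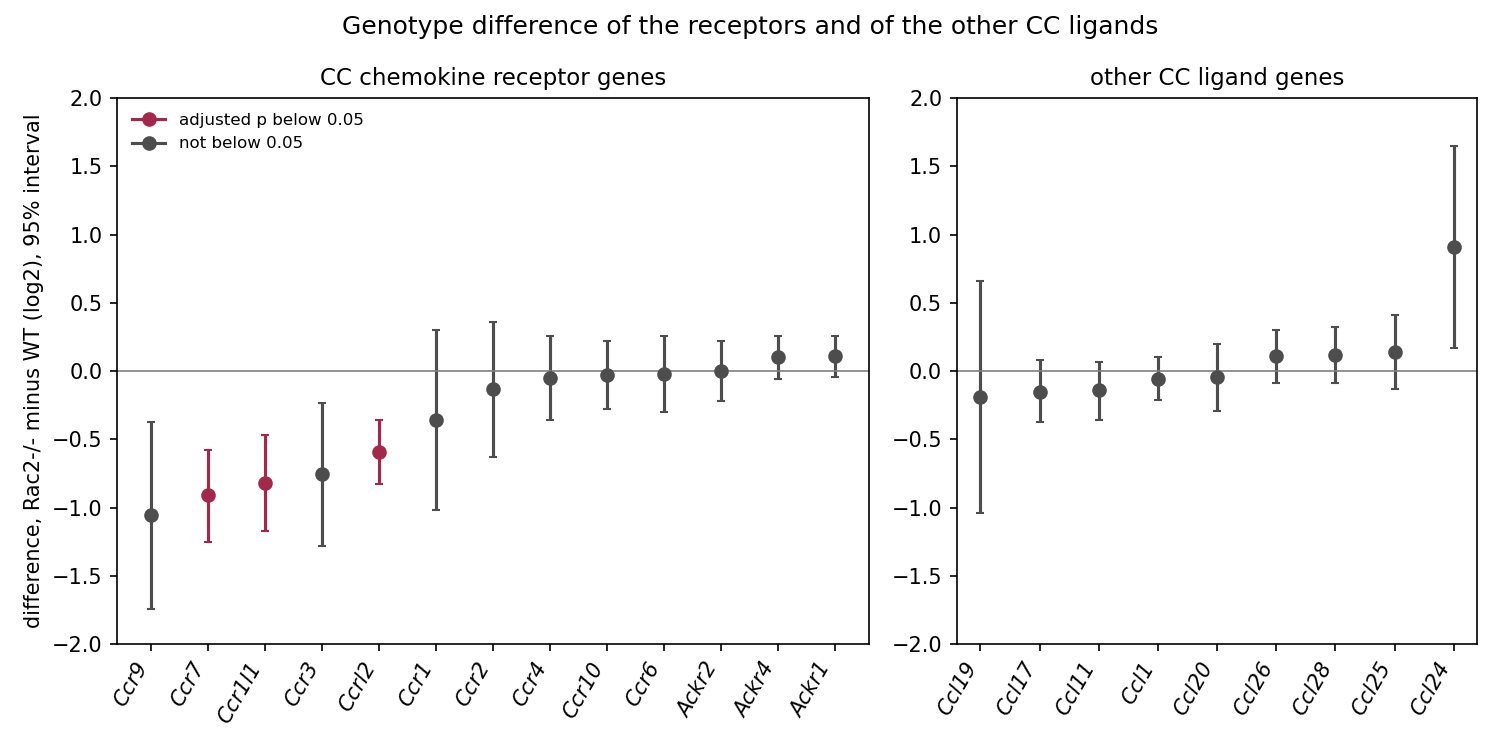
Difference, Rac2-/- minus WT (log2, vertical axis), with its 95% confidence interval for the 13 CC receptor genes tested (left) and the 9 other CC ligand genes (right), n = 5 arrays per genotype, in red where the limma adjusted p was below 0.05. Ccr7, Ccr1l1 and Ccrl2 are the 3 red points, and Ccl24 stands highest on the right at 0.91.

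Across all fits that were tried, Ccl7 passed most often and Ccl5, Ccl6 and Ccl9 never. Within arrays 3 to 5 alone, 6 of the 10 genes passed, Ccl2, Ccl7, Ccl12, Ccl3, Ccl4 and Ccl22. Arrays 3 and 4 of a genotype could read nearly alike where array 5 did not. The neutrophil marker S100a8 read 10.31, 10.30 and 7.45 in WT arrays 3 to 5 and 9.80, 9.66 and 9.26 in Rac2-/-. Ltf read 9.71, 9.65 and 6.87 in WT and 8.68, 8.61 and 7.56 in Rac2-/-. The labels do not say whether arrays 3 and 4 came from separate mice, and the fits treat them as separate. Within arrays 1 and 2 alone, with 2 arrays per genotype, 0 of 10 passed in limma, while 9 had a lower mean in Rac2-/-. In that fit 2 of all features tested passed.

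**Figure D5:**
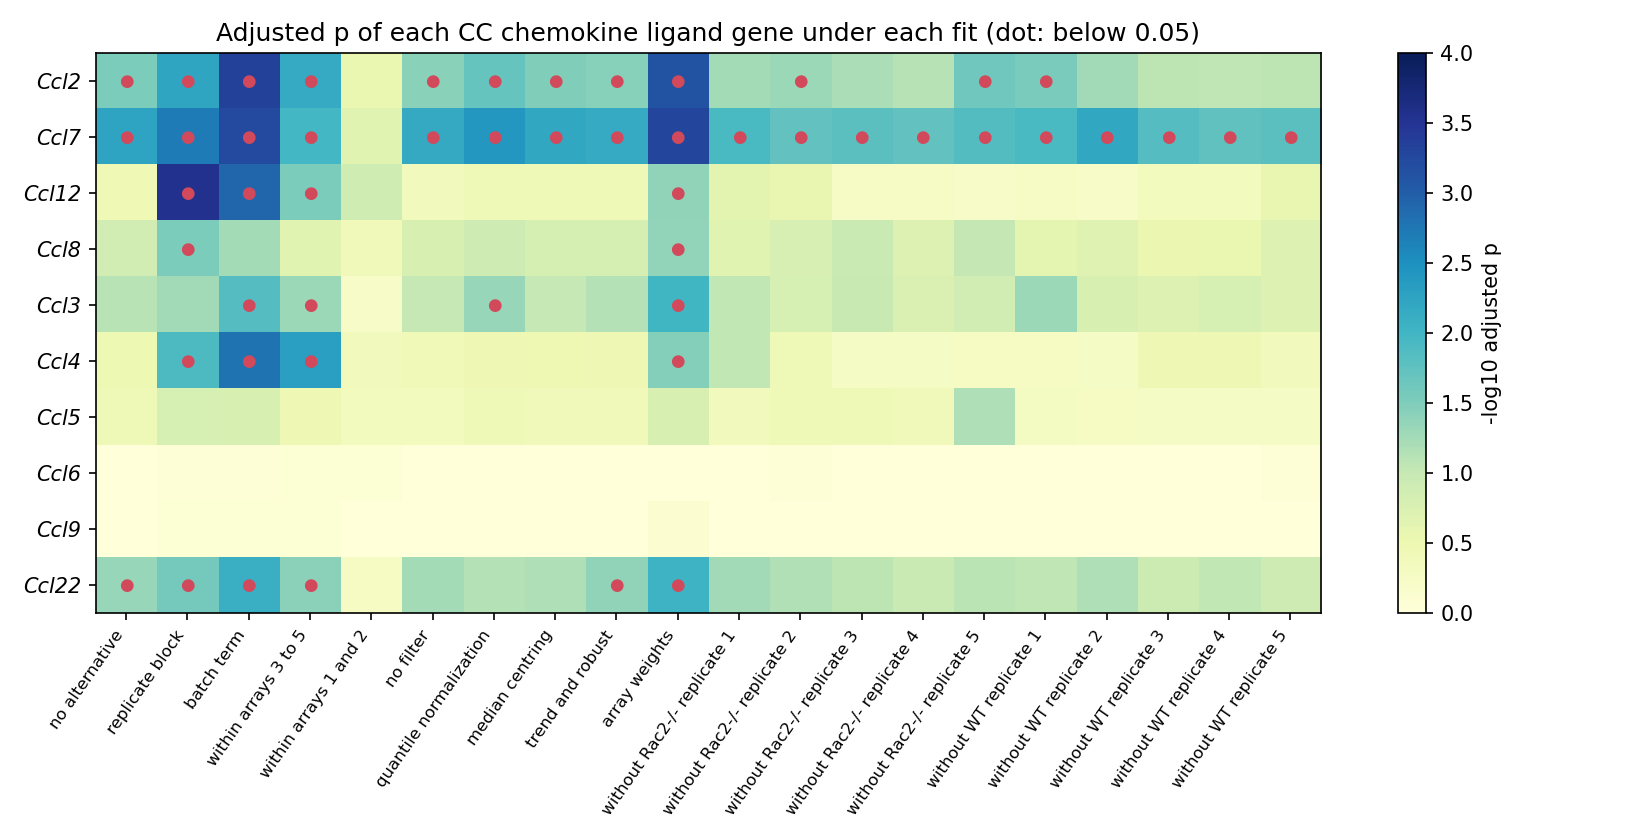
Adjusted p of each gene (rows) on a -log10 scale (colour) under each fit (columns), with a dot where it was below 0.05. The row of Ccl7 has a dot in every column except the fit within arrays 1 and 2, and the rows of Ccl5, Ccl6 and Ccl9 have none.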

How the data were processed

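Expression was deposited as log2 values after the authors' RMA step (background correction, quantile normalization, probe summary). The log base was inferred from the values (1.69 to 13.7). The methods name ComBat, but the array sets still differed in these values, and versions are not given in the sources used here. Of 34760 features, 27031 were kept, ranked by the fourth-highest of the 10 values, to match the number of genes in the methods. Rac2-/- minus WT was tested with limma 3.58.1 in R 4.3.3, with no covariate, and p-values were adjusted by Benjamini-Hochberg over all features kept (threshold 0.05). Permutation tests used every split of the 10 arrays. The code was tested on simulated data.

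Arrays of the same number deviated from their group means together (correlations 0.493 to 0.716), and the number was used as a block. The labels number the replicates but state no pairing. Arrays of other numbers in the same set correlated as much (0.476 to 0.724), so these correlations reflect the array sets and do not show pairs.

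Symbols came from the platform table, updated through GRCm38.p6, and no probe sequence was used. Genes past the test, or the 3 with the smallest adjusted p of a list, were named, with the members, Rac2 and the 3 nearest profiles of each called member. The receptors of the members, Ccr9, the cell type markers, Jun, Irf5, Nfkb2 and Il1b were named after their values were seen. 1 receptor is not reported here. Members and lists were chosen with earlier results of these data known.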

Additional observations from a re-analysis of the deposited data

Results flagged for a closer look

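Of 20 groups of 5 arrays (10 genes in 2 genotypes), 2 had an array far from the others by Dixon's criterion at the 95% level, and chance flags about 1 in 20 groups. Ccl5 in Rac2-/- array 5 was 10.59, against 12.05 to 12.51 in the other Rac2-/- arrays. Ccl22 in Rac2-/- array 1 was 5.25, against 5.56 to 5.65 in the others.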

How the results depend on the processing

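The number of CC ligand genes past the test was 3 of 10 without a block. It was 6 with the replicate block, 6 with a term for the array sets, 6 within arrays 3 to 5, 7 with array weights and 0 within arrays 1 and 2. The 6 genes were not the same in each fit. With the block they included Ccl8 and not Ccl3, and with the set term and within arrays 3 to 5 Ccl3 and not Ccl8. Without 1 array it ran from 1 to 2. The features past the test numbered 514, and 1716 with the replicate block, 2524 with the set term, 1487 within arrays 3 to 5, 2 within arrays 1 and 2, 1811 with array weights and 245 to 625 without 1 array. With no filter, quantile normalization, median centring or a trended robust variance, both counts stayed within 1.5 times, though Ccl22 was lost under the first 3 and Ccl3 passed under quantile normalization. Over 19 alternatives and 10 genes, 148 of 190 values kept direction and call, 14 gained the call, 23 lost it and 5 changed sign, all of Ccl6 or Ccl9. Ccl6 was 0.08 within arrays 3 to 5, 0.04 without Rac2-/- array 1 and 0.06 without WT array 1. Ccl9 was -0.01 without Rac2-/- array 2 and -0.03 without WT array 4. Without 1 array, Ccl6 ran from -0.18 to 0.06 and Ccl9 from -0.03 to 0.07. The cause of these changes was not tested. Averaging several features of a gene changed nothing, since each gene had 1. The number of arrays limits the precision, and the fit within arrays 1 and 2 has 2 per genotype.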

Other observations

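Of 32 genes listed for their part in switching CC ligand genes on or off, 30 had a feature of their own and 29 were tested. Their median difference was -0.09, and 2 passed, both lower in Rac2-/- BMDMs (1.11% of all features were called lower). Under the replicate block 4 passed, all lower (3.03% of all features were called lower), which added Jun and Irf5 (adjusted p = 0.0132 and 0.0482). Group means were lower for 21 of the 29 and higher for 8. Nfkb2 was higher in every Rac2-/- array than in any WT array (0.42, limma adjusted p = 0.324 without the block). Il1b was higher by 0.99 (adjusted p = 0.423) and, without Rac2-/- array 5, by 1.45 (adjusted p = 0.00012). Stat2, which carries type I interferon signals to the nucleus, read 11.54, 11.05, 11.07, 11.05 and 10.58 in Rac2-/- arrays 1 to 5, against 11.84, 11.94, 11.82, 11.79 and 11.89 in WT. Its difference was -0.79 (SE 0.15, limma adjusted p = 0.0245), array 5 again being the lowest. The call held only without Rac2-/- array 1 or 5 and was lost in the other 8 fits with an array left out (adjusted p 0.0533 to 0.0698).

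Tlr4, the receptor for bacterial lipopolysaccharide, read 9.91 to 10.01 (median 9.98) in the Rac2-/- arrays, against 10.22 to 10.33 (median 10.30) in the WT arrays. The groups were tight and did not overlap, with a difference of -0.32 (SE 0.06, limma adjusted p = 0.0312). Of the 10 fits with an array left out, it passed in 1, without Rac2-/- array 1, and the others gave adjusted p-values of 0.0682 to 0.101.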
